A study of Mus musculus with 6 samples.

Results

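The trophoblast lineage genes examined here are 10 genes known from the outer cell layer of the early mouse embryo and the placenta that grows from it: Cdx2, Elf5, Tfap2c, Gata3, Hand1, Krt7, Krt8, Krt18, Plet1 and Plac1. They were taken as every probe set whose platform gene symbol is exactly one of these names, which gave 19 of the 45037 probe sets tested, for 10 of 18193 genes with a probe set of their own. A probe set is a group of short probes for the same transcript on an Affymetrix array. Levels were measured in total RNA of mouse embryonic stem (ES) cells on 6 arrays. The parental group held 3 arrays of line CI#84.2, which is hemizygous for Dppa4, so it carries a single working copy of this gene of a nuclear protein of pluripotent cells. The knockout group held 3 arrays of line CI#243.12, in which Dppa4 is knocked out and which was compared with that parental line. Each group is thus a single cell line, and both lines grew on mouse embryonic fibroblast feeder cells, which add their own RNA. The labels do not say whether the replicates were separate cultures, and every p-value therefore rests on the spread among these arrays alone, which may be technical. The comparison bears on whether loss of Dppa4 goes along with expression of genes of a lineage that ES cells normally do not form.

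The trophoblast lineage starts as the trophectoderm, the epithelium around the blastocyst. The Hippo pathway and its DNA-binding partner Tead4 act upstream of Cdx2 there, and Cdx2 and the pluripotency factor Oct4 (Pou5f1) oppose each other in the choice between trophectoderm and inner cell mass. In trophoblast stem cells Cdx2, Elf5, Tfap2c, Eomes and Gata3 form a regulatory network, and the Elf5 gene is kept silent by promoter methylation in ES cells. Hand1 drives the formation of giant cells. Krt7, Krt8 and Krt18 encode keratin filament proteins of simple epithelia, and Plet1 and Plac1 encode surface or secreted proteins of placental progenitors and trophoblast. Not all of the 10 genes are limited to trophoblast: Tfap2c also acts in ES cells and germ cell precursors, and Krt8 and Krt18 are made in many epithelia.

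All values are on the log2 scale of RMA (robust multi-array average), and changes are knockout minus parental. The table's array medians lay between 4.21 and 4.25. The targeted gene was lower on every knockout array: Dppa4 read 10.30, 10.35 and 10.45 in the parental and 8.68, 8.84 and 8.68 in the knockout arrays (change -1.63, SE 0.08, adjusted p = 0.000112, limma). Where its probe set lies relative to the deletion is not known here. All 17 measured feeder fibroblast markers and all 5 ES cell markers lay above the background level of 3.79, set at the 95th percentile of 78 probe set means for olfactory and vomeronasal receptors, genes of sensory neurons. Of 8 measured markers that define trophoblast, 5 lay above it in at least 1 group, and Elf5, Gata3 and Tpbpa did not. The 5 were Cdx2, Eomes, Tfap2c, Hand1 and Krt7. Eomes, which is not among the 10 genes, read 5.43, 5.66 and 5.22 in parental and 5.39, 5.68 and 5.91 in knockout arrays (adjusted p = 0.721, limma). No 2 arrays were identical.

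None of the 19 probe sets passed the test of limma at an adjusted p under 0.05, against 0.402% of all probe sets (0.333% lower and 0.0688% higher in knockout cells). At an unadjusted p under 0.05 there were 3, all lower in knockout cells and all of Tfap2c, where 9.49% of all probe sets passed that threshold, 5.19% lower and 4.3% higher. The median change of the 19 was -0.05, against 0 over all probe sets, with 6 higher and 13 lower. The 16 probe sets of the other 9 genes changed by -0.17 to 0.08, and their lowest adjusted p was 0.626. The 95% interval of the change stayed within 2-fold in either direction for 18 of 19 probe sets and within 1.5-fold for 13. These intervals are on the RMA scale, which compresses the changes of transcripts near background.

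**Figure D1:**
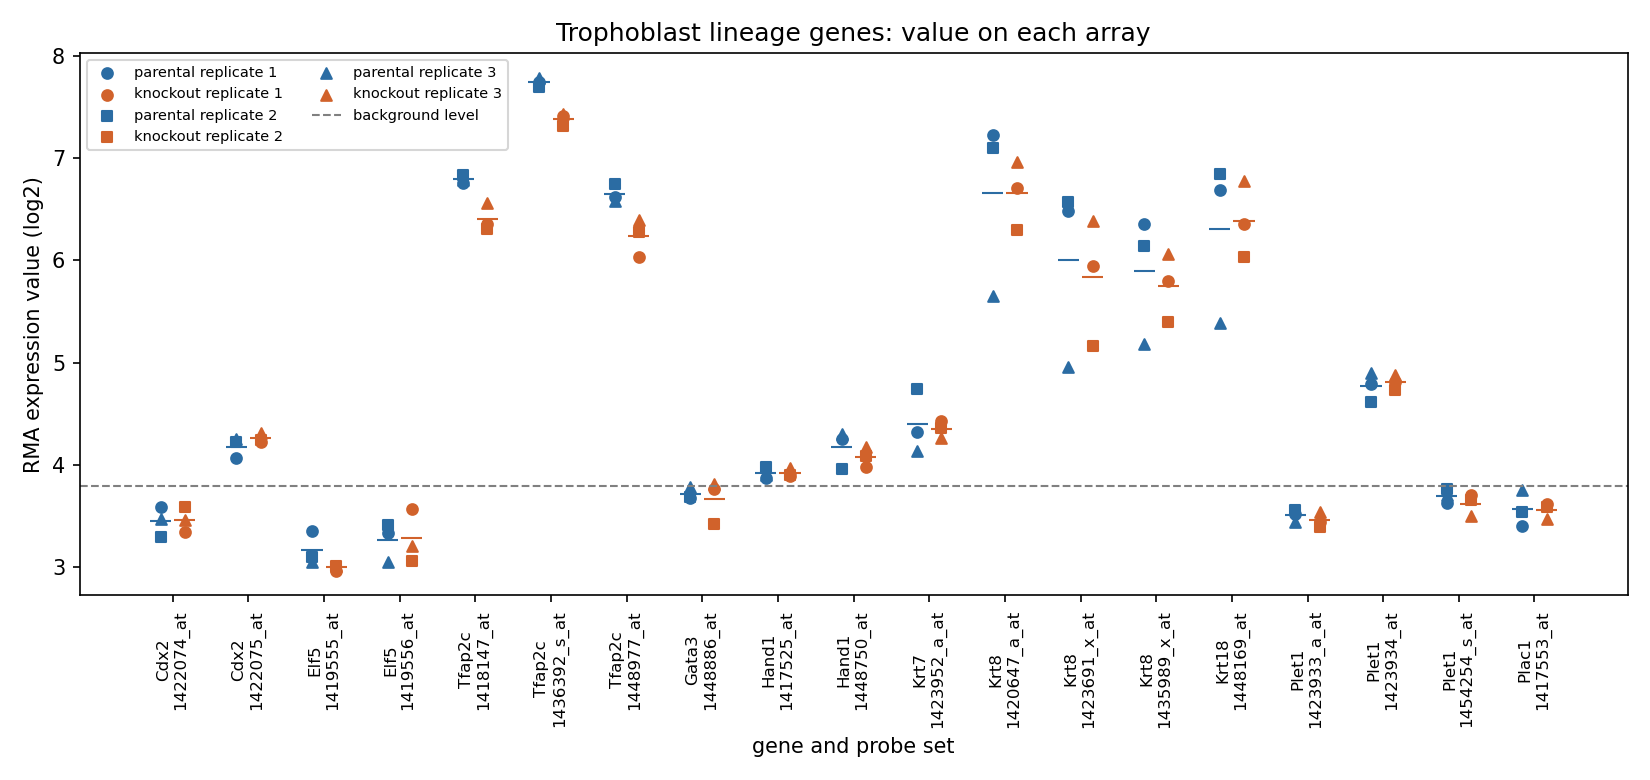
RMA values (log2, vertical axis) of the 19 probe sets on each of the 6 arrays; blue is parental, orange is knockout, bars are group means and the dashed line is the background level of 3.79. The Tfap2c groups are apart on all 3 probe sets, the Krt8 and Krt18 values spread widely within both groups, and the values of Elf5, Plac1 and Gata3 lie at or near the dashed line or below it.

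**Figure D2:**
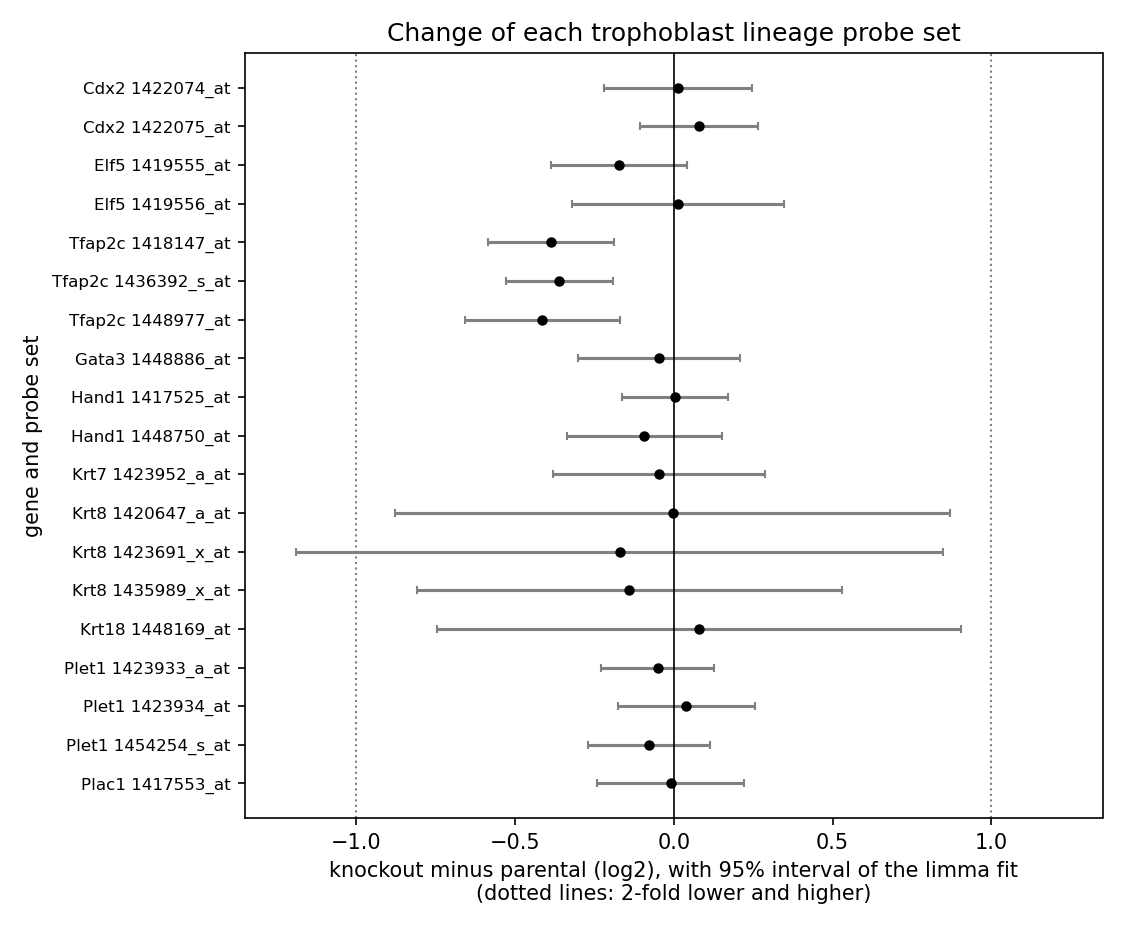
Change of each probe set (knockout minus parental, log2) with its 95% interval from limma; the dotted lines mark 2-fold. The intervals of the 3 Tfap2c probe sets lie below 0, those of Krt8 and Krt18 are the widest of the 19, and 1 of them, Krt8 1423691_x_at, crosses the line for 2-fold lower.

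The transcription factors come first, beginning with the homeobox gene Cdx2, which specifies trophectoderm. Its probe set 1422075_at read 4.06, 4.22 and 4.25 in parental and 4.22, 4.24 and 4.31 in knockout arrays. All 6 values were slightly above background, and the groups overlapped (change 0.08, SE 0.08, adjusted p = 0.824, limma). The other Cdx2 probe set, 1422074_at, read 3.58, 3.29 and 3.47 in parental and 3.34, 3.58 and 3.46 in knockout arrays, all below background. Its change was 0.01, with a 95% interval of -0.22 to 0.24.

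Elf5, an Ets-family factor of trophoblast stem cells, was below background on every array with both probe sets. On 1419555_at it read 3.35, 3.10 and 3.05 in parental and 2.96, 3.01 and 3.01 in knockout arrays. The groups were apart with lower knockout values, as for 7.52% of all probe sets. The change of -0.17 (SE 0.09, adjusted p = 0.626, limma) lay between values below background. On 1419556_at the values were 3.33, 3.41 and 3.05 against 3.57, 3.06 and 3.20, which overlapped, and the change was 0.01. The probe sets of this gene thus gave no common direction.

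Gata3, a zinc finger factor that acts beside Cdx2 in trophectoderm, read 3.67, 3.68 and 3.78 in parental and 3.76, 3.42 and 3.81 in knockout arrays. A single knockout array was above background, and the groups overlapped (change -0.05, SE 0.11, adjusted p = 0.938, limma). Hand1, the basic helix-loop-helix factor of giant cells, lay just above background with both probe sets. 1417525_at read 3.87, 3.98 and 3.90 in parental and 3.89, 3.90 and 3.97 in knockout arrays, and 1448750_at read 4.25, 3.96 and 4.30 against 3.98, 4.08 and 4.17. Their changes were 0.003 (adjusted p = 0.992) and -0.09 (adjusted p = 0.849, limma), and the groups overlapped on both.

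Tfap2c, which encodes the transcription factor AP-2 gamma, was the member with the lowest adjusted p. Probe set 1436392_s_at read 7.75, 7.70 and 7.79 in parental and 7.41, 7.32 and 7.43 in knockout arrays. 1418147_at read 6.76, 6.84 and 6.79 against 6.36, 6.31 and 6.56. 1448977_at read 6.62, 6.75 and 6.58 against 6.03, 6.28 and 6.40. On all 3 probe sets every knockout value lay below every parental value, and all values were above background. The changes were -0.36 (SE 0.07, adjusted p = 0.122), -0.39 (SE 0.09, adjusted p = 0.169) and -0.41 (SE 0.11, adjusted p = 0.239, limma), so that none passed. On the linear scale the knockout level was 75.1% to 77.9% of the parental level, and the 95% intervals of the changes ran from -0.66 to -0.17 at their widest. Groups lay apart with lower knockout values for 7.52% of all probe sets. The exact permutation p was 0.1 for each, the smallest that 3 against 3 can give. The probe sets share the arrays and are not replicates of each other.

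Values of the cell type markers stand beside these. No marker of ES cells or feeders passed the test. The mean of the 5 ES cell markers was 11.76 ± 0.04 in parental and 11.63 ± 0.03 in knockout arrays (SD, n = 3; exact permutation p = 0.1), a difference of -0.13, with 4 of the 5 lower and 1 higher. Nanog, a transcription factor gene of pluripotent cells, had the largest change of the 5 (-0.49, adjusted p = 0.122, limma). Without it, an alternative chosen after the data were seen, the difference was -0.04 (exact permutation p = 0.1), with 3 of 4 lower. That of the 17 feeder markers was 10.12 ± 0.05 and 10.24 ± 0.10 (SD, n = 3; exact permutation p = 0.2). With the feeder mean as a covariate the Tfap2c changes were -0.38, -0.42 and -0.32 in the order given above, with adjusted p of 0.472, 0.506 and 0.670 (limma). The part of the ES cell markers in the Tfap2c values was not tested. In such bulk RNA, fewer cells of a type and less RNA per cell cannot be told apart.

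Krt8 and Krt18 encode the partner proteins of the first keratin filaments of the embryo, a type II and a type I keratin that assemble as pairs. Krt8 probe set 1420647_a_at read 7.23, 7.10 and 5.65 in parental and 6.71, 6.30 and 6.96 in knockout arrays. Krt18 (1448169_at) read 6.69, 6.85 and 5.39 in parental and 6.36, 6.03 and 6.78 in knockout arrays. In both genes parental replicate 3 was the lowest of all arrays and knockout replicate 2 the lowest of its group, and the knockout values lay within the parental range. The group means differed little: Krt8 was 6.66 ± 0.88 and 6.66 ± 0.33, and Krt18 was 6.31 ± 0.80 and 6.39 ± 0.38 (SD, n = 3; changes -0.003 and 0.08, adjusted p = 1 and 0.971, limma). These small differences depended on single arrays, in both directions. Without parental replicate 3 the change was -0.51 for Krt8 1420647_a_at (adjusted p = 0.529) and -0.38 for Krt18 (adjusted p = 0.703, limma). Leaving out another array instead gave up to 0.28 for Krt8 1420647_a_at and up to 0.35 for Krt18. Parental replicate 3 was singled out after its values were seen, so no drop in the knockout can be read from its removal. The remaining Krt8 probe sets have the x_at ending, which marks probes that may also bind related transcripts. 1423691_x_at read 6.48, 6.57 and 4.96 against 5.95, 5.16 and 6.39, and 1435989_x_at read 6.36, 6.14 and 5.18 against 5.80, 5.40 and 6.06. Both showed the same low arrays, with changes of -0.17 (adjusted p = 0.945) and -0.14 (adjusted p = 0.926, limma). Without parental replicate 3 they were -0.69 (adjusted p = 0.637) and -0.50 (adjusted p = 0.550, limma), and without another array up to 0.17 and 0.09.

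The spread of these keratins within groups was among the largest on the arrays. The within-group SD of the 4 probe sets was 0.50 to 0.78, and 0.0711% to 0.420% of all probe sets had a larger one. From the lowest to the highest array they spanned 2.27-fold to 3.05-fold. Averaged over the 4 probe sets, parental replicate 3 (5.30) lay 1.37 below the nearest other parental array, and knockout replicate 2 (5.72) lay 0.48 below the nearest other knockout array. Across the 6 arrays, each Krt8 probe set followed Krt18, with Pearson's r of 0.94 to 0.98 (exact permutation p of 0.00417 to 0.00694, 0.00694 after Benjamini-Hochberg adjustment over the 3 relations) and Spearman's rho of 0.83 to 0.94 (exact permutation p of 0.0167 to 0.0583, adjusted 0.05 to 0.0583). Without parental replicate 3 and knockout replicate 2, the arrays farthest from the median of Krt18, r was 0.75 for 1420647_a_at, 0.95 for 1423691_x_at and 0.67 for 1435989_x_at. The relation was noticed in these data before it was computed, and it includes arrays of both groups.

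**Figure D3:**
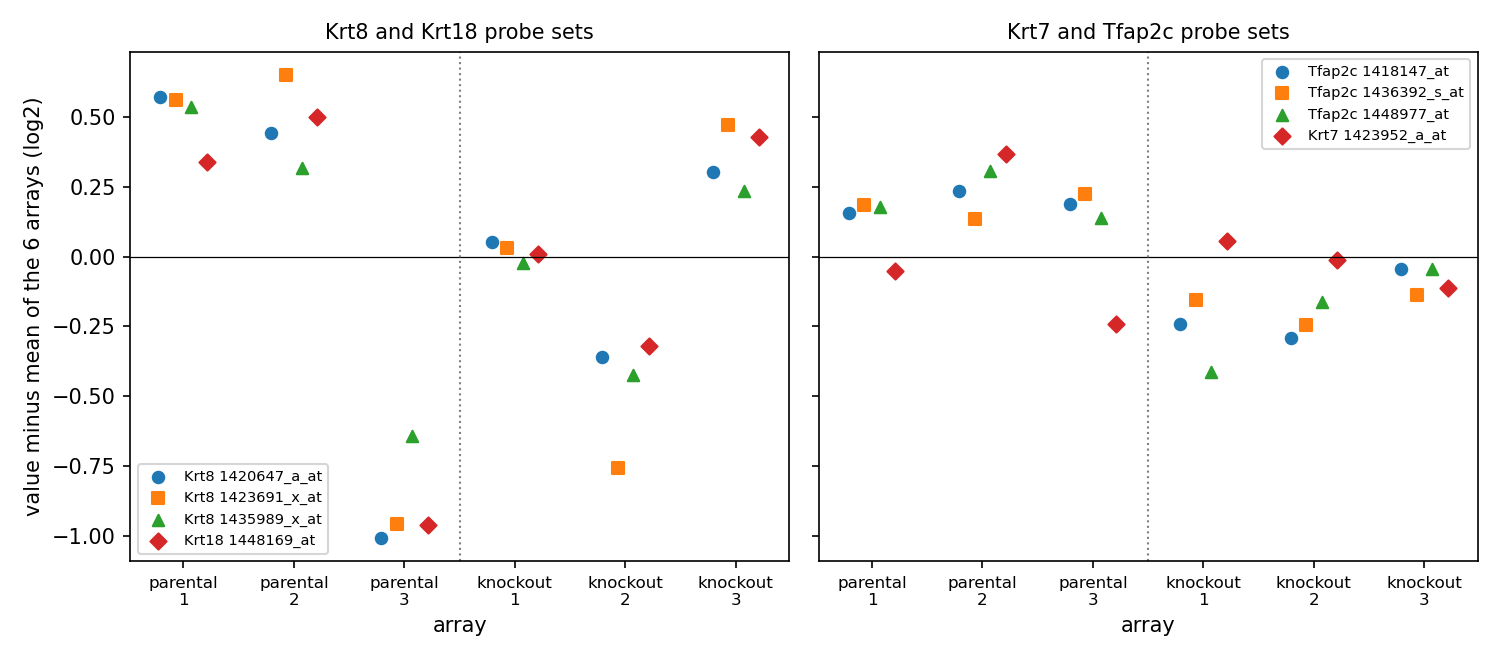
Value minus the mean of the 6 arrays (log2, vertical axis) for each array, with the Krt8 and Krt18 probe sets on the left and Tfap2c and Krt7 on the right; the dotted line separates parental from knockout arrays. The 4 keratin probe sets on the left are all low on parental replicate 3 and knockout replicate 2, while the 3 Tfap2c probe sets are above 0 on every parental and below 0 on every knockout array.

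Krt7, a further type II keratin of trophoblast and simple epithelia, read 4.32, 4.74 and 4.13 in parental and 4.43, 4.36 and 4.26 in knockout arrays. All values were above background, and the parental values enclosed all knockout values (change -0.05, SE 0.15, adjusted p = 0.956, limma). Parental replicate 3 was again the lowest array, but knockout replicate 2 was not the lowest of its group.

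The arrays that were low for Krt8 and Krt18 also resembled each other beyond these genes. Deviations of parental replicate 3 and knockout replicate 2 from their group means correlated at 0.50 across the 26727 probe sets above background, and for parental replicate 2 with knockout replicate 3 the value was 0.51. These correlations are across probe sets, which are not independent replicates. The labels used here give no culture, extraction or hybridization batch. The standard errors and the permutation p-values treat the 6 arrays as independent, and the part of this resemblance across groups in them was not tested. Among 306 other genes above background with a range of at least 1, the 5 whose values over the 6 arrays were most like the mean of the 4 keratin probe sets were Frmd4b (r = 0.95), Rarres2 (r = 0.93), Krt19 (r = 0.91), Pi15 (r = 0.91) and Ifi209 (r = 0.90). Krt19 is a type I keratin of simple epithelia, and Rarres2 encodes the secreted protein chemerin. Krt19 read 5.97, 5.65 and 4.77 in parental and 5.27, 4.59 and 5.47 in knockout arrays, low on the same arrays. This rule was set after the keratin values were seen, and r is given as a description. The feeder marker means of the parental arrays were 10.07, 10.18 and 10.11 and those of the knockout arrays 10.34, 10.15 and 10.23. Of the 17 feeder markers, 6 were lowest of their group on both parental replicate 3 and knockout replicate 2. Col1a1, Col1a2, Col3a1, Col5a2, Col6a3 and Postn were instead the highest of their group on both of these arrays. Of the 5 ES cell markers, 3 were lowest on both, namely Nanog, Sox2 and Dppa5a. Sox2 (10.86, 10.84 and 10.90) and Dppa5a (13.51, 13.48 and 13.54) differed little among the knockout arrays. Pou5f1 and Zfp42 were instead the highest of the knockout group on knockout replicate 2. Means of the 5 ES cell markers were 11.79, 11.77 and 11.72 in parental and 11.64, 11.60 and 11.65 in knockout arrays, lowest on the same arrays. The primitive endoderm markers include genes of another keratin-bearing epithelium. Their means were 5.95, 5.96 and 5.88 in parental and 6.02, 5.90 and 5.90 in knockout arrays. Of these 14, 2 were lowest on both arrays, and Gata4, Amn and Cubn were below background. The group means (parental and knockout) of Gata6 (4.43 and 4.33), Sox17 (4.12 and 3.98) and Afp (3.84 and 3.78) lay near background. Those of Sparc (12.00 and 12.05), Lamb1 (10.58 and 10.64) and Pdgfra (9.77 and 9.98) were far higher. Which cells, feeders included, made these transcripts was not tested. The share of all probe sets lowest on both arrays was not computed. As the 2 arrays resembled each other across probe sets, these counts cannot be read as a trait of a cell type. The part of any of these cell types in the keratin values was not tested.

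Promoter sequences show what lies just upstream of these keratin genes. They are shown because Krt8 and Krt18 varied together over the arrays and Krt7 did so less closely. Krt7 had r = 0.56 with the mean of the Krt8 and Krt18 probe sets over the 6 arrays. Of the remaining members, Plac1 (r = -0.87) and Plet1 1423933_a_at (r = 0.81), both below background, had the strongest relation to that mean. RefSeq sequences of the assembly GRCm38.p6 were matched for 8 of the 10 members, and the 250 bases before each start are printed 5′ to 3′ on the gene's own strand. Krt8 and Krt18 are near neighbours on chromosome 15, with 2 genes of long non-coding RNA between them in the RefSeq gene order. Capitals mark matches to any of 4 motifs searched on both strands: GCCNNNGGC for AP-2 factors such as Tfap2c, AGATAA for GATA factors such as Gata3, CATTCC for Tead factors, and TATAAA for the TATA box.
Krt8 (chr15:102004343-102004592, minus strand): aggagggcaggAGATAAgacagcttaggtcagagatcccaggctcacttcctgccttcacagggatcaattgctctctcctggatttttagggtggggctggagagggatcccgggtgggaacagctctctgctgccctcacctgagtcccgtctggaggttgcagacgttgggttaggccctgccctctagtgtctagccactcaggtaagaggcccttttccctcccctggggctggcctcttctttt
Krt18 (chr15:102027966-102028215, plus strand): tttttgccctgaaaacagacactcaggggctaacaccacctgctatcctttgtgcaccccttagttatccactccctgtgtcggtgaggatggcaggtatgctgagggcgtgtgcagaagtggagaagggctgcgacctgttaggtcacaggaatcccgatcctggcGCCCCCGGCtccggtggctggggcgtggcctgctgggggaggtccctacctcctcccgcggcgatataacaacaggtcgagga
Krt7 (chr15:101412153-101412402, plus strand): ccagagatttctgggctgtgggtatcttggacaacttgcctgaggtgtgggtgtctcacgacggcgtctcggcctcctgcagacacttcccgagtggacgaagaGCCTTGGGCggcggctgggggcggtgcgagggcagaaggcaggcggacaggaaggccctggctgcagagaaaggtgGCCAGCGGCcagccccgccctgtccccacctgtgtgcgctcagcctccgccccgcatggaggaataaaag
Krt18 held 1 AP-2 match, whose first base lies 83 bases before the start, and Krt7 held 2, at 146 and 70 bases. Krt8 held no AP-2 match and 1 GATA match, at 239 bases. The AP-2 letters occurred in 4 of the 10 member windows, those of Gata3, Cdx2, Krt7 and Krt18, and in 13.7% of all 32851 windows of this length. The GATA letters occurred in 2 of 10 member windows and 9.99% of all windows, the Tead letters in 1 of 10 and 12.6%, and the TATA letters in 1 of 10 and 12.4%. The 10 member windows come from 8 genes, as Elf5 and Plac1 have 2 starts each, and a match is a description of the letters only.

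The placental genes Plet1 and Plac1 complete the list. Plet1, which marks trophoblast progenitors of the ectoplacental cone and chorion, read 4.79, 4.61 and 4.90 in parental and 4.81, 4.73 and 4.88 in knockout arrays on 1423934_at. These values were above background and overlapped (change 0.04, SE 0.09, adjusted p = 0.937, limma). Its other probe sets were below background on every array: 1423933_a_at lay between 3.39 and 3.56 and 1454254_s_at between 3.50 and 3.76, with changes of -0.05 and -0.08. The X-linked gene Plac1, needed for normal placental growth, read 3.40, 3.54 and 3.75 in parental and 3.61, 3.58 and 3.47 in knockout arrays, below background throughout. Its change was -0.01 (SE 0.10, adjusted p = 0.988, limma).

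By level, 12 of the 19 probe sets had a group mean above background, against 59.3% of all probe sets. With the 99th percentile of the receptor probe sets as background (4.92) the count was 7, namely those of Tfap2c, Krt8 and Krt18. The probe sets of Cdx2, Hand1, Krt7 and Plet1 that passed the lower level lay between the 2 levels. All probe sets of Tfap2c, Hand1, Krt7, Krt8 and Krt18 were above the level of 3.79, some of Cdx2 and Plet1, and none of Elf5, Gata3 and Plac1.

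Wider lists of trophoblast and related genes were read from the same fit. They were drawn up with earlier results of these data known, each gene was represented by its probe set with the highest mean, and the median change of all 18193 genes so represented was 0. At an unadjusted p under 0.05, 6.37% of these genes were lower and 4.66% higher in knockout cells. Of 17 measured trophoblast stem and lineage regulators, 0 passed the test of limma, 1 was higher and 2 were lower at an unadjusted p under 0.05, and the median change was -0.04. Named by the rule of highest mean were the chromatin remodeller gene Smarca4 (-0.19, adjusted p = 0.458) and Esrrb (-0.18, adjusted p = 0.543), a nuclear receptor gene of both ES and trophoblast stem cells. Of 18 measured genes of the Hippo pathway, 0 passed, 1 was higher and 0 were lower at an unadjusted p under 0.05, and the median change was -0.03. Ccn1 (0.10, adjusted p = 0.904) and Ccn2 (-0.09, adjusted p = 0.962), known targets of Yap1, were named by the same rule (limma).

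Of 19 measured genes of differentiated trophoblast and placenta, 2 fell, 0 rose and 17 did not pass, and the median change was -0.08. Of all probe sets, 0.333% were called lower and 0.0688% higher. At an unadjusted p under 0.05 (limma), 0 of the 19 were higher and 3 lower. The 2 genes that passed had been seen to fall before this list was drawn up, so their count is not independent evidence. Car4, which encodes a membrane-bound carbonic anhydrase, read 6.04, 6.32 and 5.09 in parental and 2.95, 3.28 and 3.65 in knockout arrays. Every knockout value was below background, which itself lies 4.07-fold below the parental mean (change -2.52, adjusted p = 0.0133, limma). This bound leaves out the spread of the parental arrays (SD 0.64, n = 3). The other probe set of Car4 gave a bound of 2.48-fold lower, with an adjusted p of 0.0679 (limma) that missed the threshold. The homeobox gene Rhox9 read 5.76, 5.56 and 5.09 against 4.53, 4.27 and 4.27 (change -1.11, SE 0.16, adjusted p = 0.0368, limma). Leaving out 1 array ended the call of Car4 for parental replicate 1 (adjusted p = 0.0883), knockout replicate 1 (0.0762) and knockout replicate 2 (0.0582), as did the feeder mean as a covariate (-2.47, adjusted p = 0.210). Rhox9 lost it without parental replicate 1 (0.121) or 2 (0.145), without knockout replicate 1 (0.102), 2 (0.127) or 3 (0.171) and with the feeder covariate (-1.22, adjusted p = 0.254, limma). Prl8a9, Tpbpa, Ctsq, Psg17, Psg21 and Peg10, genes of the placenta, were below background in both groups on the probe sets used, and the other 13 measured genes were above it in at least 1 group.

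**Figure D4:**
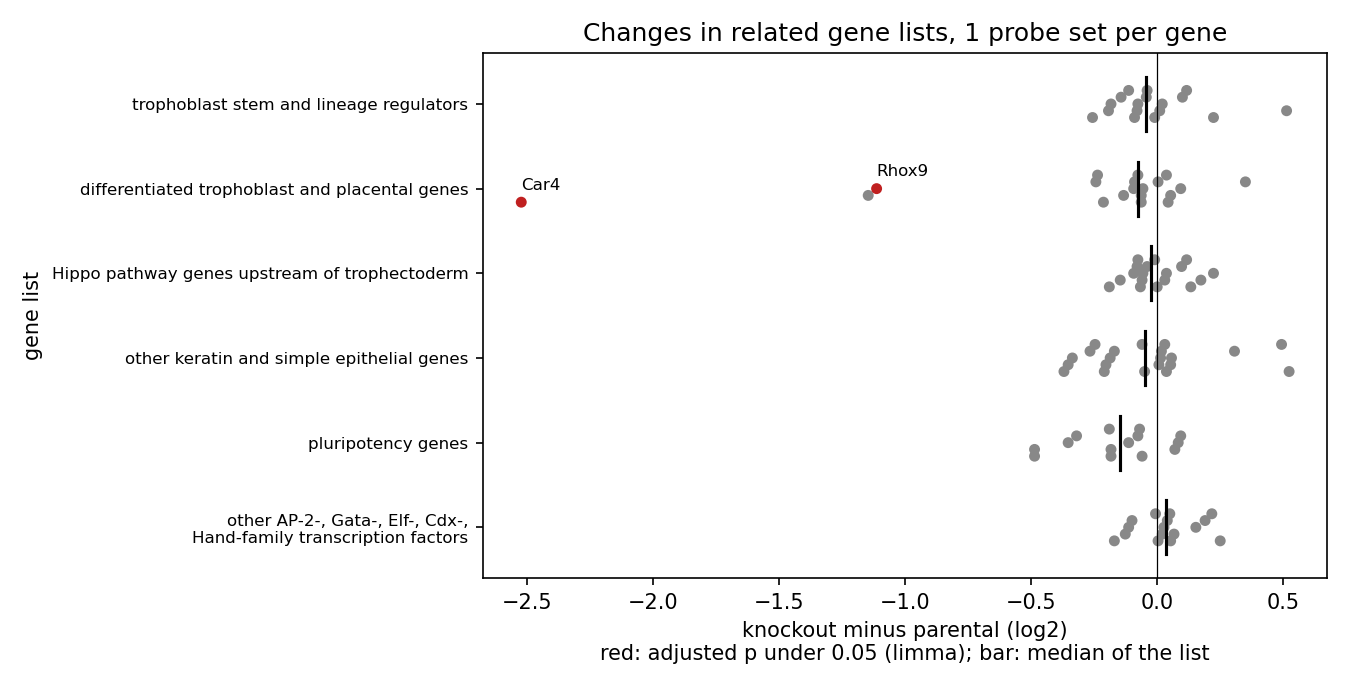
Change (knockout minus parental, log2, horizontal axis) of each gene in 6 related lists; red points passed the test of limma and black bars are list medians. The 2 red points are Car4 at -2.52 and Rhox9 at -1.11, and the grey point beside the latter is Rhox6 at -1.15 (adjusted p = 0.175).

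Of 21 measured other keratin and simple epithelial genes, 0 passed (limma), while 2 were higher and 4 lower at an unadjusted p under 0.05 (median change -0.05). The cell adhesion genes Cdh1 (-0.19, adjusted p = 0.560) and Epcam (0.01, adjusted p = 0.977) were those named. Of 14 pluripotency genes, 0 passed, and 0 were higher and 5 lower at an unadjusted p under 0.05 (median change -0.15), where 6.37% of all genes were lower. The 5 were Nanog and Prdm14 (both -0.49), Klf2 (-0.35), Tfcp2l1 (-0.32) and Sall4 (-0.19), all transcription factor genes, with adjusted p of 0.122 to 0.520 (limma). Pou5f1, which encodes Oct4, changed by -0.06 (adjusted p = 0.852) and Dppa5a by 0.08 (adjusted p = 0.781, limma). Of 16 other members of the AP-2, Gata, Elf, Cdx and Hand families, 0 passed the test of limma and 0 had an unadjusted p under 0.05 (median change 0.03). Elf1 (0.15, adjusted p = 0.852) and Elf2 (0.19, adjusted p = 0.583) were those named. An intensity trend with a robust prior called a single further gene in 3 of the lists: the growth factor gene Bmp4 (0.51, adjusted p = 0.0239), the desmosome gene Pkp2 (0.52, adjusted p = 0.0360) and Nanog (-0.49, adjusted p = 0.0266, limma).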

How the data were processed

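The authors deposited RMA values, on a log2 scale by their range of 2.12 to 13.98, for each probe set on each array; RMA is named in the submitters' processing notes. Which software and chip definition made them is not given in the sources used here. The 64 control probe sets were left out. The platform annotation named 1 gene for 34945 probe sets, several for 932 and none for 9160, and gene IDs of 34741 were matched to RefSeq (GRCm38.p6).

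The knockout was tested against the parental group by limma 3.58.1 (two-sided, moderated, without covariates; R 4.3.3) over 45037 probe sets, with Benjamini-Hochberg adjustment over all of them and a threshold of 0.05. The number of arrays limits the precision. All member probe sets are named. From each related list, up to 4 genes that passed or, where none did, the 2 with the highest mean are named; other names were chosen after their values were seen. The members and lists were chosen with earlier results of these data known. The fit was also run on simulated data. Their arrays were independent, so the run cannot show how the fit behaves when arrays resemble each other across groups. For a gene at or below background on all knockout arrays, the fold is a bound set by the parental mean and the background level, without sampling error. Alternatives were quantile normalization again, array medians subtracted, the replicate block, a trend with a robust prior, no moderation, probe sets above background only, no x_at and s_at probe sets, gene means, the feeder marker mean as a covariate, other background percentiles and leaving out each array.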

Additional observations from a re-analysis of the deposited data

How the results depend on the processing

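No member probe set passed the test of limma (0 of 19) under any of the 15 alternatives, gene means and each left-out array included, and the 3 Tfap2c probe sets kept their direction in all that were run on them (adjusted p 0.0644 to 0.670, lowest with the mean of the gene's probe sets). The 181 probe sets called in all became 88 with the replicate block, 312 with an intensity trend and robust prior, 1 without moderation, 70 to 112 when an array was left out and 37 with the feeder covariate. The deviations of arrays with equal replicate numbers correlated at 0.17, -0.46 and -0.40. Arrays with unequal numbers reached 0.50 (parental 3 with knockout 2) and 0.51 (parental 2 with knockout 3). Deviations cancel out within each group, which ties these values to each other, so they cannot decide how the arrays are paired. The block ended the call of Car4 (adjusted p = 0.0729) but not of Rhox9 (0.0409); no moderation ended both (0.301 and 0.336). The count of 12 member probe sets above background became 14 at the 90th and 7 at the 99th percentile. Changes close to 0 turned their sign in places, for which the cause was not tested, and none of these passed. With the feeder covariate, Elf5 1419556_at gave -0.27, Hand1 -0.017 (1417525_at) and 0.041 (1448750_at), Krt18 -0.16, Ccn1 -0.15 and Elf1 -0.13. The gene mean gave -0.08 for Elf5, -0.029 for Plet1 and -0.0083 for Epcam, subtracting medians 0.0033 for Krt8 1420647_a_at, and repeated quantile normalization 0.005 for Plac1. Without 1 array, the ranges that included both signs were Ccn1 -0.032 to 0.26, Ccn2 -0.44 to 0.22, Cdx2 1422074_at -0.065 to 0.08, Elf1 -0.07 to 0.28, Elf5 1419556_at -0.13 to 0.12, Epcam -0.0017 to 0.04, Gata3 1448886_at -0.12 to 0.075, Hand1 1417525_at -0.022 to 0.035, Krt18 1448169_at -0.38 to 0.35, Krt7 1423952_a_at -0.18 to 0.12, Krt8 1420647_a_at -0.51 to 0.28, Krt8 1423691_x_at -0.69 to 0.17, Krt8 1435989_x_at -0.50 to 0.093, Plac1 1417553_at -0.092 to 0.083, Plet1 1423934_at -0.038 to 0.11. Parental replicate 3 set the lowest values of all 3 Krt8 probe sets and of Krt18 in these ranges. The mean change of the ES cell markers became -0.04 without Nanog, against -0.13 with it. The 95% intervals of the Krt8 and Krt18 changes reached from -1.19 to 0.90.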
